A study of Mus musculus with 3 samples.

Results

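Small leucine-rich proteoglycans are secreted matrix proteins built around leucine-rich repeats. The family was followed here through 10 genes, Dcn, Bgn, Aspn, Ecm2, Lum, Fmod, Prelp, Omd, Ogn and Podn, chosen by symbol among the 32285 genes of the count tables. Each symbol matched 1 row. The study asked how loss of matrix Gla protein (Mgp), a secreted inhibitor of bone morphogenetic proteins and of calcification, alters progenitor cells of white fat. Stromal vascular cells of inguinal (subcutaneous) fat were taken from 4-week-old mice on a C57BL/6 background and sorted as DAPI-negative, CD45-negative cells. The Wild-type library came from unmodified mice, the Mgp-KO library from mice lacking Mgp in every cell, and the Pd-KO library from mice with floxed Mgp and a Pdgfra-Cre transgene, whose Cre is driven from Pdgfra and so is aimed at cells of that lineage. Each genotype was 1 library made from pooled mice of both sexes, and no agent was given to any group. With 1 library per genotype no spread between mice could be estimated and no test was made. The 95% intervals below are exact and cover counting error only. Where 3 values are given in a row, they follow the order Wild-type, Mgp-KO, Pd-KO.

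Members of this family bind collagen fibrils and set their diameter and spacing, and several bind growth factors such as TGF-beta in the matrix. Their core proteins can carry chondroitin or dermatan sulfate chains (class I) or keratan sulfate chains (class II), while others carry no such chain. In fat they are made mainly by the fibroblast-like stroma that also holds the adipocyte progenitors.

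After barcodes with at least 2000 UMIs (unique transcript molecules counted) and at most 10% mitochondrial UMIs were kept, 10511, 12575 and 8819 cells remained, with median depths of 12802, 6445 and 8269 UMIs. Between 35 and 40 barcodes were shared by any pair of libraries. Clustering without the members and Mgp gave 7356, 11074 and 7015 stromal-like cells, and 1050, 223 and 587 mural-like cells (vascular smooth muscle-like and pericyte-like together). All 7 stromal markers were detected in the stromal-like cells of each library, and all 7 smooth muscle and 7 pericyte markers in the mural-like cells. The count files named Cell Ranger 4 for Wild-type and 7.1.0 for both knockouts, so software version and genotype cannot be told apart when a knockout is set against Wild-type. In stromal-like cells the log2 ratio of the global knockout to Wild-type had a median of -0.15 for genes spanning under 10 kb, 0.18 for 10 to 100 kb and 1.36 for at least 100 kb, and for the Pd-KO library it was -0.26, 0.24 and 1.60. Lum spans 7.58 kb, and the other members lie between 10.4 kb (Omd) and 81.7 kb (Podn). Pd-KO and Mgp-KO share a version, and their medians were closer together (-0.10, 0.06 and 0.27).

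The levels below are UMIs per 1000000 UMIs of the cells (CPM), counted at the 3' end and so not scaled by transcript length. Mgp itself stood at 511 CPM in stromal-like cells of the Wild-type library, 1.90 in Mgp-KO and 0.616 in Pd-KO. In pericyte-like cells it stood at 588, 0 and 618 CPM, in vascular smooth muscle-like cells at 243, 7.52 and 26.4 CPM, and in endothelial-like cells at 675, 0 and 37.5 CPM. The Pd-KO library thus kept Mgp in its pericyte-like cells, while its stromal-like, smooth muscle-like and endothelial-like cells were far below the Wild-type level, and the Mgp-KO library was low in all of them.

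Several members are neighbours in the mouse genome (GRCm38). Ecm2, Aspn, Omd and Ogn lie in a row on chromosome 13, all on the plus strand, with gaps of 11653, 14896 and 15223 bases. Dcn and Lum lie 46984 bases apart on chromosome 10, and Prelp and Fmod 115839 bases apart on chromosome 1. Bgn lies on the X chromosome at 73483602 to 73495933 and Podn on chromosome 4. The 250 bases before the start of each gene of the chromosome 13 row are shown because Ecm2 differed from its neighbour Aspn in its pattern across stromal subsets. Aspn, Omd and Ogn were more alike. RefSeq sequences (GRCm38.p6, plus strand) were matched for 8 of the 10 members, not for Dcn and Lum. They run chr13:49504560-49504809 for Ecm2, chr13:49544193-49544442 for Aspn, chr13:49582212-49582461 for Omd and chr13:49607765-49608014 for Ogn. Capitals mark matches to TATAAA on either strand, which in Ogn overlap each other.
Ecm2: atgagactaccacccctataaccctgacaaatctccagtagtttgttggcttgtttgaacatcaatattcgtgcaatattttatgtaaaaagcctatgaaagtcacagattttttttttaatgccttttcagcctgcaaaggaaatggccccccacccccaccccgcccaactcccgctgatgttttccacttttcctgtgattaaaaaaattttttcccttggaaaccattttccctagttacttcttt
Aspn: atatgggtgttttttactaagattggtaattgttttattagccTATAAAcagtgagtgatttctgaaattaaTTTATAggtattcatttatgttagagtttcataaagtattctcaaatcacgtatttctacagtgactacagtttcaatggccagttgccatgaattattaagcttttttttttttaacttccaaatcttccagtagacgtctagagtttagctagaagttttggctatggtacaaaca
Omd: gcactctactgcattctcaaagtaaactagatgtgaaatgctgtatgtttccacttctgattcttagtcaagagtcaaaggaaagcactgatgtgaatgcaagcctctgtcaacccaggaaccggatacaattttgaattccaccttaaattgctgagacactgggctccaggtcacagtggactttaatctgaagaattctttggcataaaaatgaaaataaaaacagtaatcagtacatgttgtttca
Ogn: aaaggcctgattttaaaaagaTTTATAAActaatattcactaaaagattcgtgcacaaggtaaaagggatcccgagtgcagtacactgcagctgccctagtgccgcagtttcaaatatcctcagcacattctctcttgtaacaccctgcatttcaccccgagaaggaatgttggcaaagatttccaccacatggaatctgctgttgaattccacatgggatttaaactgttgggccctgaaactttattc
Aspn and Ogn each held 2 matches and Ecm2 and Omd none, where 12.4% of 32851 mouse promoters of this length held at least 1. A match describes the letters only.

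The 10 members together made up 1.42% of the UMIs of stromal-like cells in the Wild-type library, 1.34% in Mgp-KO and 1.34% in Pd-KO. Dcn alone gave 67.8%, 72.0% and 67.6% of these. In mural-like cells the members made up 0.498%, 0.426% and 0.386% of UMIs.

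The class I genes were led by Dcn (decorin), which carries a single chondroitin or dermatan sulfate chain and decorates collagen I fibrils. Dcn stood at 9599.95 CPM in stromal-like cells of the Wild-type library, 9660.19 CPM in Mgp-KO and 9019.57 CPM in Pd-KO. Bgn (biglycan), its closest relative, stood at 713, 505 and 595 CPM. Aspn (asporin), which has a run of aspartates in place of the chain, stood at 507, 366 and 714 CPM. Dcn therefore differed little between libraries, Bgn was highest in Wild-type, and Aspn was lowest in Mgp-KO and highest in Pd-KO. Ecm2, a leucine-rich repeat matrix protein related to this class, stood at 80.7, 49.1 and 65.8 CPM.

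Among the class II genes, Lum (lumican), a keratan sulfate proteoglycan of thin collagen fibrils, stood at 1994, 1430.3 and 1347.55 CPM. Prelp, which has a basic tail that binds heparin-like chains, stood at 115, 96.1 and 137 CPM. Omd (osteoadherin), an acidic member best known from bone, stood at 33.6, 42.1 and 47.6 CPM. Lum was higher in Wild-type than in either knockout, while Omd was lower. Fmod (fibromodulin), which binds collagen I in tendon, was near the bottom of the range at 5.96, 2.18 and 4.67 CPM, from 638, 170 and 303 UMIs. Ogn (osteoglycin, also mimecan), of class III, stood at 1073.59, 1219 and 1385 CPM, and Podn (podocan), of class V, at 34.7, 47.5 and 37.0 CPM.

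Across the 13 stromal subsets the members fell into different patterns, and the order of the subsets was similar in each library. Spearman's rho between any pair of libraries over the 13 subsets was at least 0.742 for every member. The subsets share their library's depth and preparation, so these correlations are descriptions. A ratio of at least 4 between the highest and lowest subset was seen in 6 of 7 members tested in Wild-type (39% of all genes tested), 6 of 8 in Mgp-KO (41.6%) and 8 of 8 in Pd-KO (76.2%). Members that did not reach 100 CPM in any subset of a library were not counted there, and all genes were held to the same minimum. Ecm2 in Wild-type and Mgp-KO and Podn in Pd-KO reached it only in Areg-like cells, where they were highest. Their entry thus depended on the subset that sets the ratio, and the counts are a description only. Dcn in Pd-KO ran from 13311 CPM to 2005 CPM in the Opcml-high subset, and its next lowest subset was at 5339 CPM. In the Wild-type and Pd-KO libraries, Dcn, Bgn and Lum were lowest in the Opcml-high interstitial progenitor-like subset, with Dcn at 4237, 8277 and 2005 CPM. The Malat1 level of that subset was 81542, 22803 and 47809 CPM and its median mitochondrial share 6.74%, 1.43% and 6.098%, and the part of RNA quality in its values was not tested.

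**Figure D1:**
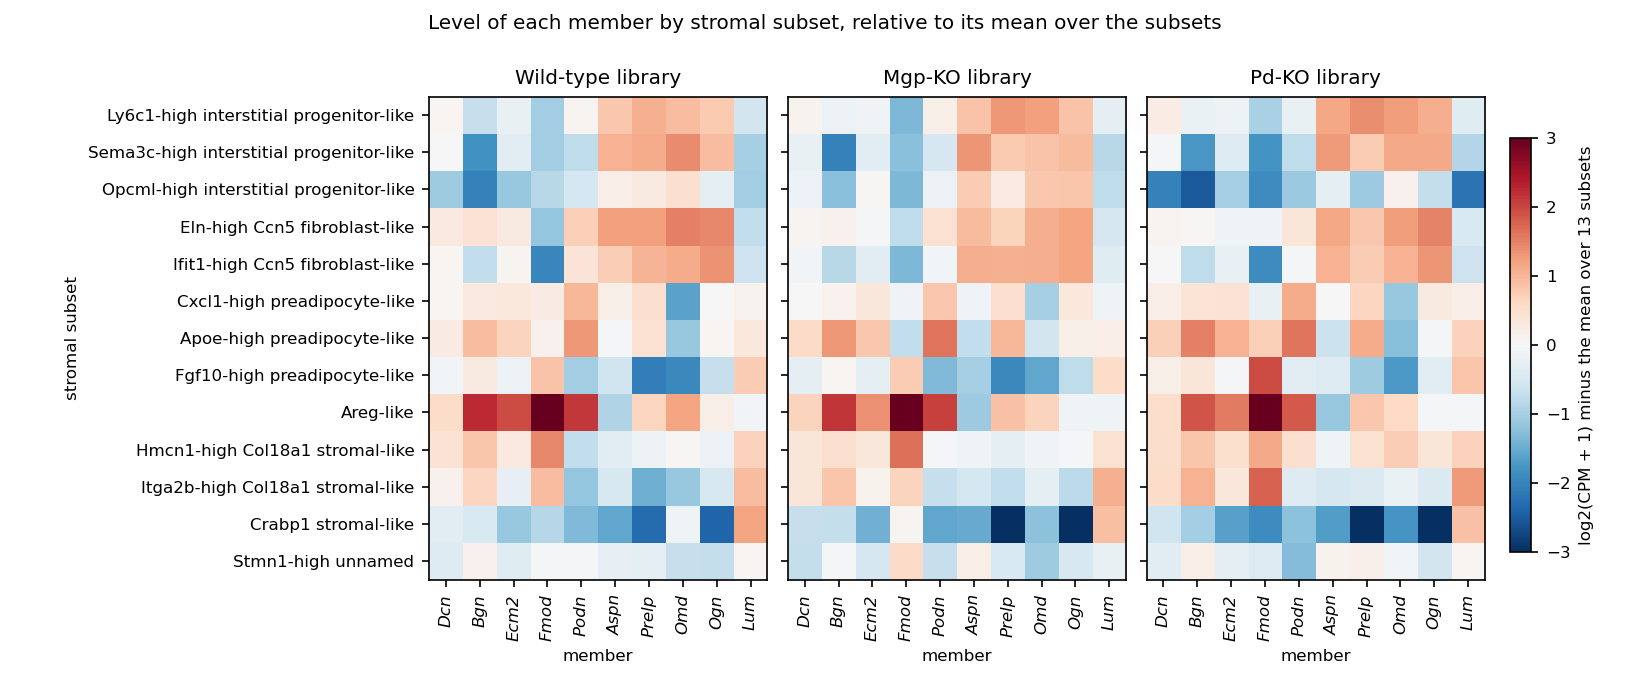
Level of each member (columns) in each of the 13 stromal subsets (rows) in the 3 libraries, as log2(CPM + 1) minus the member's mean over the subsets of that library, red above and blue below, with colours capped at 3. Bgn and Fmod are red in the Areg-like row in each library, Lum is red in the Col18a1 and Crabp1 rows, and Aspn, Prelp, Omd and Ogn are red in the Sema3c-high and Ly6c1-high interstitial progenitor-like and both Ccn5 fibroblast-like rows.

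The Areg-like cells, named from markers such as F3, Gdf10 and C2 of the adipogenesis-regulating cells of fat, held the highest level of 5 members on average over libraries: Dcn, Bgn, Ecm2, Fmod and Podn. Bgn stood at 2389, 2026 and 1961 CPM there, and Fmod at 38.9, 21.4 and 44.0 CPM. For both, the lowest of the 3 values lay above the highest value of any other subset. Ecm2 in these cells stood at 247, 120.0 and 178 CPM, and Podn at 99.6, 154 and 102 CPM. Ecm2 and Podn were also highest in Areg-like cells within each library, although the values of the next subset, the Apoe-high preadipocyte-like cells, overlapped theirs across libraries. Dcn was highest in Areg-like cells in Wild-type and Mgp-KO only, and stood at 13064.3, 14993 and 11728.6 CPM in Areg-like cells and at 10513, 13839 and 13311 CPM in the Apoe-high preadipocyte-like cells. The same Areg-like cells held the highest Mgp level of the Wild-type library, 4334 CPM. Over the 13 Wild-type subsets the Pearson correlation of log2 levels with Mgp was 0.82 for Bgn, 0.74 for Fmod, 0.64 for Ecm2 and -0.58 for Aspn.

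Aspn, Prelp, Omd and Ogn were high in the Sema3c-high and Ly6c1-high interstitial progenitor-like cells, named from markers such as Dpp4 and Pi16, and in the Ccn5 fibroblast-like cells. Ogn stood at 2389.8, 1872 and 2053 CPM in the Eln-high Ccn5 fibroblast-like subset, against 995, 769.9 and 720.1 CPM in Areg-like cells. Aspn stood at 874, 641 and 991 CPM in the Sema3c-high interstitial progenitor-like subset, against 228, 120.3 and 186 CPM in Areg-like cells. Prelp was highest on average in the Ly6c1-high interstitial progenitor-like subset, at 174, 161 and 209 CPM. Omd reached 82.4, 65.7 and 66.1 CPM in the Eln-high subset and lay between 6.56 and 9.59 CPM in the Fgf10-high preadipocyte-like subset. In Areg-like cells Omd was at 65.2, 48.1 and 41.3 CPM.

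Lum took the opposite course. It stood at 3418, 3149.58 and 3607.51 CPM in the Itga2b-high Col18a1 stromal-like subset and at 4099.9, 2815 and 2743 CPM in the Crabp1 stromal-like subset. It was at 903, 847 and 809.8 CPM in the Sema3c-high interstitial progenitor-like subset. The Crabp1 stromal-like subset was at the same time the lowest for Aspn, Ecm2, Prelp, Ogn and Podn on average, with Ogn at 165, 79.1 and 61.6 CPM and Prelp at 16.1, 6.70 and 3.08 CPM. Neighbouring subsets in a member's order mostly overlapped over the 3 libraries, in 8 of 12 steps for Ogn and up to 12 of 12 for Aspn and Ecm2.

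Correlations of log2(CPM + 1) over the 39 subset and library points put numbers on these groups. The pairs with the highest Pearson correlation were Prelp with Ogn (0.88), Bgn with Fmod (0.79), Bgn with Ecm2 (0.78) and Aspn with Ogn (0.78). Lum ran against Omd (-0.60) and Aspn (-0.57). The adjacent genes Aspn and Ecm2 were at 0.03, while Aspn and Omd were at 0.58 and Omd and Ogn at 0.67. Dcn and Lum were at 0.43 over all points but at 0.21, 0.08 and 0.70 within the libraries, and in Pd-KO the Opcml-high subset was the lowest for both.

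Among 6616 genes compared over 45 points (13 stromal subsets and the smooth muscle-like and pericyte-like cells in 3 libraries), the genes most like each member were Rnase4 for Dcn (Pearson's r 0.93), Uap1l1 for Bgn (0.82), Mgll for Aspn (0.81), C2 for Ecm2 (0.84) and S1pr2 for Lum (0.94). They were Slc11a1 for Fmod (0.80), Serping1 for Prelp (0.86), Glt8d2 for Omd (0.87), Clec3b for Ogn (0.96) and Ppl for Podn (0.89). The next on the list were Serpinf1 and Scpep1 for Dcn, Cxcl14 and Acp5 for Bgn, Lims2 and C1qtnf1 for Aspn, Steap4 and Fzd4 for Ecm2, and Mdk and Capg for Lum. For the rest they were Stom and Cdc42ep3 for Fmod, Gstm1 and Sspn for Prelp, Sfrp2 and Gpc3 for Omd, Pcolce2 and Ly6a for Ogn, and Gpnmb and Tgfbi for Podn. These points share libraries and depth, so the values are a description of likeness. C2 is also among the genes used to name the Areg-like cells.

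Mural cells wrap blood vessels, and the members split between them and the stroma taken as a whole. In mural-like cells Aspn stood at 787, 555 and 659 CPM and Prelp at 168, 137.0 and 117 CPM. Dcn stood at 2568, 2332 and 1915 CPM and Lum at 534, 316 and 297 CPM. Aspn and Prelp were thus near or above their pooled stromal levels, and Dcn and Lum were below theirs in every library. Single stromal subsets held more of Aspn and Prelp than mural-like cells did. Aspn was at 874, 641 and 991 CPM in Sema3c-high, and Prelp at 174, 161 and 209 CPM in Ly6c1-high interstitial progenitor-like cells. Past 2-fold (an absolute log2 ratio of at least 1 with an interval outside 0, among genes with at least 100 UMIs over the pair), 6 of 10 members differed between mural-like and stromal-like cells in each library, against 23.6%, 20.7% and 26.4% of all genes (12.5%, 11.1% and 14.8% higher, and 11.1%, 9.57% and 11.6% lower). They were the same 6 in each library. In Mgp-KO, with 223 mural-like cells, only Lum and Fmod were past 2-fold with at least 5000 UMIs per cell (2 members), and only Dcn, Lum and Ogn in male cells (3 members). Dcn (log2 ratio -1.90, -2.05 and -2.24), Lum (-1.90, -2.18 and -2.18), Omd (-1.81, -2.10 and -2.07), Ogn (-1.63, -1.80 and -2.29) and Podn (-1.55, -1.27 and -1.88) were lower in mural-like cells. Fmod was higher than in the pooled stroma, at 21.6, 12.8 and 9.44 CPM, with log2 ratios of 1.86, 2.55 and 1.02. The Pd-KO value of Fmod rests on 30 UMIs, was past 2-fold in 5 of 11 alternatives and turned to -0.11 in male cells only. Areg-like cells of the stroma held more Fmod than mural-like cells in each library, at 38.9, 21.4 and 44.0 CPM. Bgn, Aspn, Ecm2 and Prelp stayed within 2-fold.

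**Figure D2:**
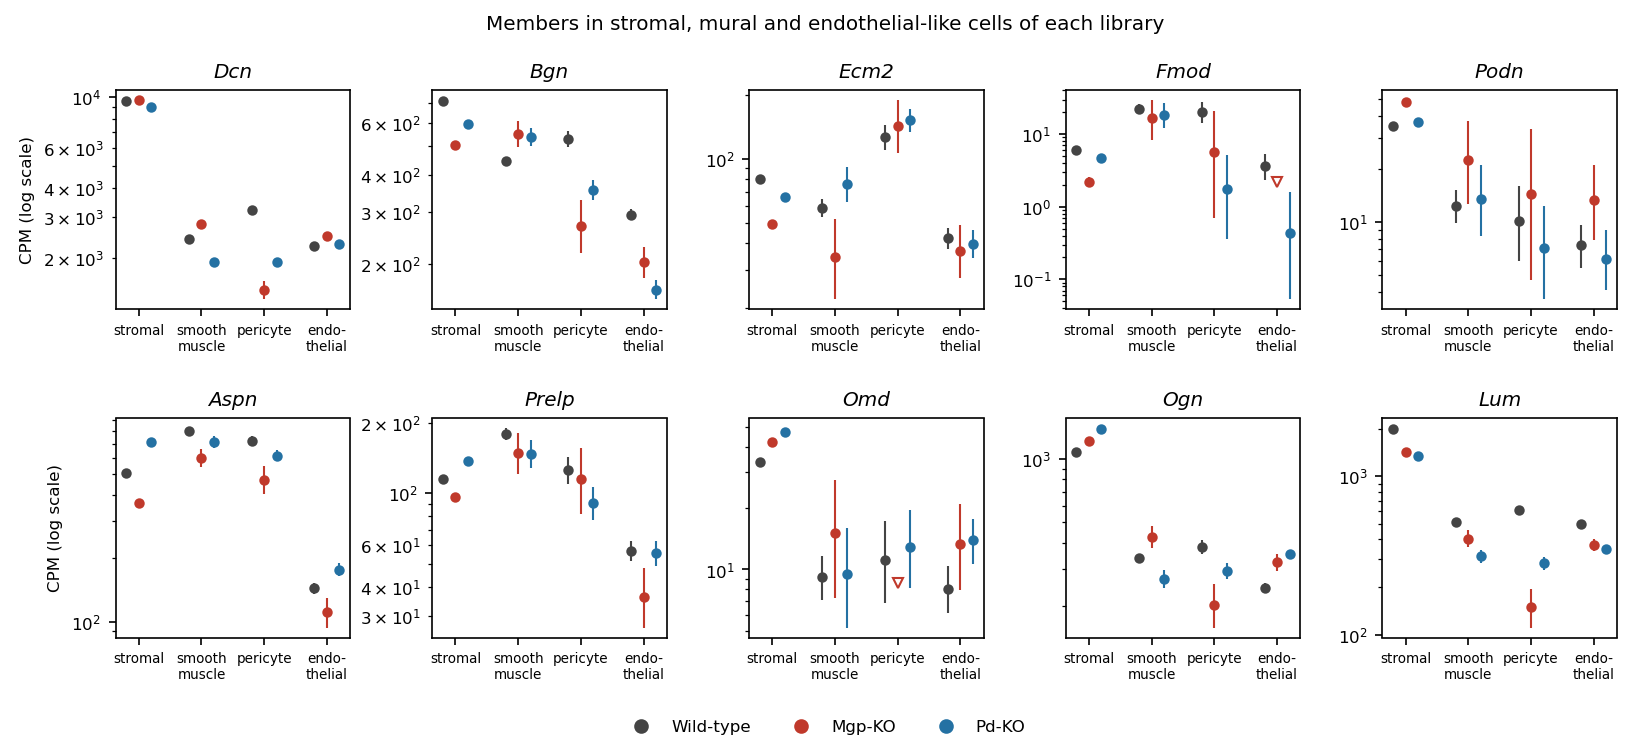
Level of each member in stromal-like, vascular smooth muscle-like, pericyte-like and endothelial-like cells, in CPM on a log axis, 1 point per library with its 95% counting interval, and open triangles at the limit a count of 0 allows. Aspn, Prelp and Bgn in both mural types lie above the endothelial-like cells of the same library, while Dcn and Lum in mural-like and endothelial-like cells lie below the stroma.

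Stromal RNA was also counted in mural-like cells, so endothelial-like cells, which line vessels, were read in the same way. Whether they make members of their own was not tested. The 7 stromal markers summed to 5672, 4463 and 3961 CPM in mural-like cells and to 5734, 6835 and 5651 CPM in endothelial-like cells, against 17256.5, 15844 and 15289 CPM in stromal-like cells. Dcn in endothelial-like cells was 2256, 2493 and 2292 CPM, and the log2 ratio of mural-like over endothelial-like was 0.19, -0.10 and -0.26. For Lum this ratio was 0.09, -0.22 and -0.22. Dcn and Lum in mural-like cells were thus just above the endothelial-like cells in Wild-type and below them in both knockouts. For Aspn the ratio was 2.45, 2.32 and 1.90, for Prelp 1.56, 1.92 and 1.07, for Ecm2 0.77, 0.96 and 1.54, and for Bgn 0.66, 1.16 and 1.43. Fmod stood at 3.60, 0 and 0.441 CPM in endothelial-like cells, where a count of 0 in the Mgp-KO library allows up to 2.22 CPM.

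When the 8% of barcodes per library with the highest score for simulated doublets (barcodes holding a pair of cells) were left out, 124 Wild-type, 31 Mgp-KO and 65 Pd-KO mural-like cells went. Dcn in mural-like cells then stood at 794, 571 and 311 CPM, Lum at 196, 61.9 and 64.9 CPM, and Ogn at 156, 111 and 62.7 CPM. Aspn stood at 869, 564 and 645 CPM, Prelp at 180.5, 144 and 117 CPM, Bgn at 424, 446 and 399 CPM, and Ecm2 at 73.6, 76.0 and 127 CPM. The summed stromal markers were then at 2553, 1854 and 1444 CPM, lower like Dcn, Lum and Ogn, while Aspn, Prelp, Bgn and Ecm2 stayed near their former levels. Unlike the clustering, the doublet score did not leave out the members. Leaving out barcodes that resemble mixtures with stroma can itself lower genes high in the stroma. These values therefore do not show where that RNA came from. Fmod was at 23.1, 14.1 and 11.7 CPM.

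Counts per cell gave the same split after each cell was thinned to 2000 UMIs. Aspn had a UMI in 74.7%, 62.3% and 64.1% of mural-like cells and in 14.6%, 9.22% and 10.5% of endothelial-like cells. Dcn had one in 68.2%, 26.5% and 23.7% of mural-like cells and in 74.3%, 27.7% and 30.6% of endothelial-like cells, and its share in mural-like cells was thus not above the endothelial-like share. Without thinning the Aspn shares were 94.5%, 80.3% and 85.3% in mural-like and 33.7%, 15.2% and 16.4% in endothelial-like cells. Median depths were 6736, 3575 and 4371 UMIs in mural-like cells and 6685, 3643.5 and 4278 in endothelial-like cells. Barcodes with 10 to 100 UMIs, taken as free RNA, held Dcn at 4915, 5777 and 4550 CPM and Aspn at 137, 242 and 383 CPM. Markers of other cell types put the share of free RNA at 0.22%, 0.44% and 4.23% of UMIs in mural-like cells. In endothelial-like cells it was 0.39%, 1.02% and 5.21%.

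Within the mural-like cells, Ecm2 was higher in pericyte-like cells (126, 143 and 152 CPM) than in vascular smooth muscle-like cells (58.6, 34.6 and 75.8 CPM), with log2 ratios of 1.11, 2.05 and 1.00. Prelp was lower in pericyte-like cells in each library, at 125, 115 and 90.6 CPM against 179, 149 and 148 CPM. In the Mgp-KO library these rest on 72 pericyte-like and 151 smooth muscle-like cells, and the interval for Prelp spans 0 there. Aspn was close in both types, at 718, 472 and 614 CPM in pericyte-like and 804, 598 and 712 CPM in smooth muscle-like cells.

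The Mgp-KO library was set against Wild-type, from which it also differs in software version, depth and share of female cells. The ratios therefore cannot be assigned to loss of Mgp. In stromal-like cells 1 of 10 members was past 2-fold, Fmod, where 21.1% of all genes were (18.2% higher and 2.9% lower). Of genes spanning 10 to 100 kb, as every member but Lum does, 12.8% were past 2-fold and higher. The Fmod level of 2.18 against 5.96 CPM was a log2 ratio of -1.45 (interval -1.70 to -1.20). The next lowest ratios were Ecm2 (-0.72), Bgn (-0.50), Lum (-0.48), Aspn (-0.47) and Prelp (-0.26). Dcn was at 0.01, and Ogn (0.18), Omd (0.32) and Podn (0.45) lay above 0. The median of the 10 members was -0.36 and that of all genes tested 0.16. Fmod thinned to 2000 UMIs was found in 1.32%, 0.41% and 0.91% of stromal-like cells, against 0.48%, 0% and 0.13% of endothelial-like cells.

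In stromal-like cells of the Pd-KO library all 10 members were within 2-fold of Wild-type, where 26.6% of all genes passed (21.3% higher and 5.36% lower). Of genes spanning 10 to 100 kb, as every member but Lum does, 16.4% were past 2-fold and higher. Lum had the lowest log2 ratio (-0.57, interval -0.58 to -0.55), and Omd (0.50) and Aspn (0.49) the highest. The median of the members was 0.00044 and that of all genes 0.19. Both comparisons share the Wild-type library. Set directly against each other, Pd-KO over Mgp-KO put 1 of 10 members past 2-fold, against 7.07% of all genes (2.64% higher and 4.43% lower). It was Fmod again, now higher (4.67 against 2.18 CPM, log2 ratio 1.10, interval 0.82 to 1.38). Aspn was just inside the limit, at 714 against 366 CPM (log2 ratio 0.96, interval 0.94 to 0.98). Prelp (0.51) and Ecm2 (0.42) followed, and Podn (-0.36) was the lowest.

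**Figure D3:**
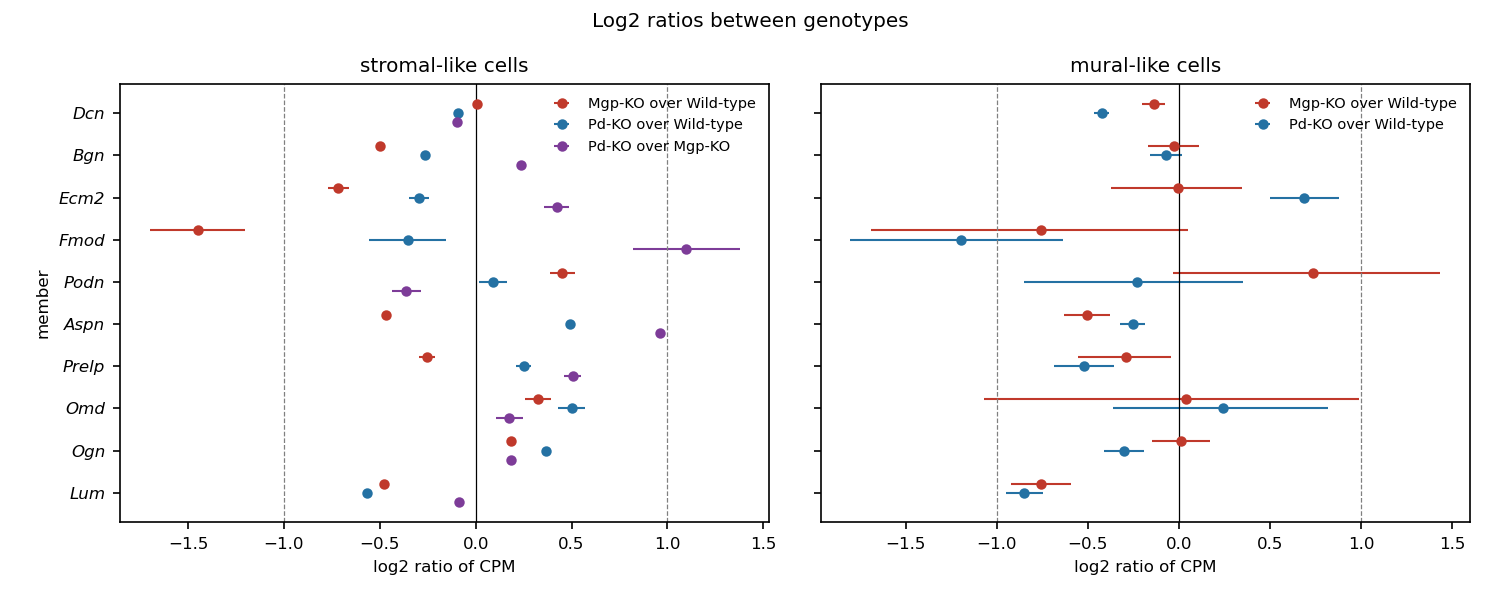
Log2 ratio of CPM between libraries for each member, with 95% counting intervals, in stromal-like cells (left) and mural-like cells (right), dashed lines marking 2-fold. In stromal-like cells Fmod lies at -1.45 in Mgp-KO over Wild-type and at 1.10 in Pd-KO over Mgp-KO, and every other point lies inside the dashed lines.

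The subsets held different shares of the stroma in each library, which enters these pooled ratios. The Eln-high Ccn5 fibroblast-like subset, rich in Ogn, held 4.55% of stromal-like cells in Wild-type, 14.1% in Mgp-KO and 17.4% in Pd-KO, and the Areg-like subset 10.7%, 5.91% and 7.04%. With the subset shares fixed to those of Wild-type, Ogn was at 1034 CPM in Mgp-KO and 999 CPM in Pd-KO, log2 ratios of -0.05 and -0.10. Omd was at 0.06 and -0.07, and Bgn at -0.11 and 0.20, on the same log2 scale. Lum was at -0.33 and -0.13, so its pooled ratio of -0.57 in Pd-KO shrank with the shares fixed. Aspn was at 288 CPM in Mgp-KO and 510.3 CPM in Pd-KO beside 507 CPM in Wild-type. Its log2 ratio in Mgp-KO was then -0.81, farther from 0 than the pooled -0.47, while that in Pd-KO went from 0.49 to 0.01. Fmod was at -1.01 and 0.31. In Areg-like cells, the only subset with enough Fmod UMIs in each comparison, Mgp-KO over Wild-type was -0.87 (interval -1.24 to -0.50) and Pd-KO over Mgp-KO was 1.04 (interval 0.64 to 1.45).

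Within subsets, Aspn in the Mgp-KO library was below its Wild-type level in 13 of 13 subsets, with log2 ratios from -1.45 in the Apoe-high preadipocyte-like cells (153 against 417 CPM) to -0.17. It was the only member below 0 in every subset tested, of the 9 tested in at least 10 subsets, where 4.92% of all genes were. The share of female cells was higher in Mgp-KO than in Wild-type in each subset (79.6% against 47.6% in the Apoe-high cells). Aspn was lower in female cells of both libraries, and the part of sex in the subset ratios was not tested. Against Mgp-KO, Aspn in Pd-KO was higher in 12 of 13 subsets and Ecm2 in 10 of 11, where 23.9% of all genes were higher in all subsets but at most 1. No member was above 0 in every subset there (12.1% of all genes) or below 0 in every subset (12.4%). The exception for both was the Opcml-high subset. Podn in Mgp-KO was above its Wild-type level in 10 of 10 subsets tested, at log2 ratios from 0.45 to 1.48, as were 20.2% of all genes (33.1% with at most 1 exception), and Podn has the longest gene of the members. Between Pd-KO and Wild-type, 0 of 8 members were below 0 in every subset (15% of all genes), above 0 in every subset (24.8%) or above 0 with at most 1 exception (35.9%).

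**Figure D4:**
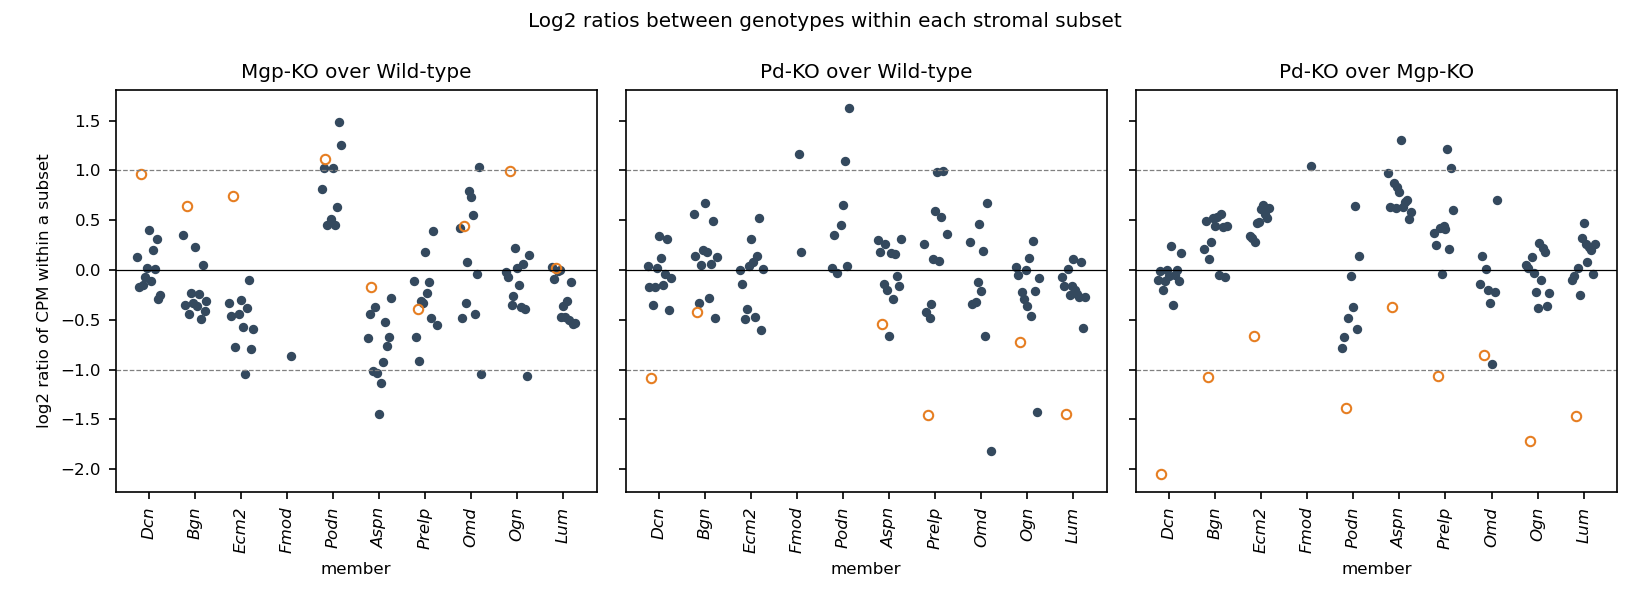
Log2 ratio of CPM within each stromal subset, 1 point per subset with at least 100 UMIs over the pair, for each member and each pair of libraries; orange circles are the Opcml-high subset and dashed lines mark 2-fold. Aspn lies below 0 in all 13 subsets in Mgp-KO over Wild-type and above 0 in 12 of 13 in Pd-KO over Mgp-KO.

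In mural-like cells no member of the 9 tested was past 2-fold in Mgp-KO over Wild-type, where 10.8% of all genes were (9.1% higher and 1.71% lower). Lum and Fmod had the lowest log2 ratios (both -0.76), and the interval for Fmod, from 13 UMIs in Mgp-KO, ran from -1.69 to 0.05. Aspn was at -0.50 (interval -0.63 to -0.38), close to its stromal ratio. In Pd-KO over Wild-type, 1 of 10 members passed, Fmod (9.44 against 21.6 CPM, log2 ratio -1.20, interval -1.80 to -0.64), against 20.5% of all genes (17.9% higher and 2.62% lower). The Pd-KO mural-like cells held 288 pericyte-like of 587, the Wild-type ones 220 of 1050. In smooth muscle-like cells alone Fmod was at 22.02 CPM in Wild-type and 18.3 CPM in Pd-KO. In pericyte-like cells it was at 20.1 and 1.76 CPM, the latter from 3 UMIs. The pericyte-like cells of these libraries were unlike in smooth muscle RNA, with Acta2 at 2109 CPM in Wild-type and 175 CPM in Pd-KO. Ecm2 had the highest ratio (0.69, interval 0.50 to 0.88). It was at 58.6 and 75.8 CPM in smooth muscle-like and at 126 and 152 CPM in pericyte-like cells of Wild-type and Pd-KO.

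The libraries also differed in sex makeup, since 47.6%, 79.4% and 43.2% of stromal-like cells that could be called were female. The call rests on Xist and Y-linked UMIs, and cells with neither or both were not called. Aspn was lower in female than in male cells, at 400.0 against 594 CPM in Wild-type and 304 against 516 CPM in Mgp-KO, but at 710.3 against 734 CPM in Pd-KO. Its log2 ratio of female over male was -0.57, -0.76 and -0.05. Ogn (-0.37, -0.41 and -0.27) and Prelp (-0.61, -0.43 and -0.30) were lower in female cells in each library, and Lum was higher (0.29, 0.31 and 0.28). Bgn, on the X chromosome, was at 0.04, -0.01 and 0.09. Subsets differ in sex makeup too, so these values mix both.

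**Figure D5:**
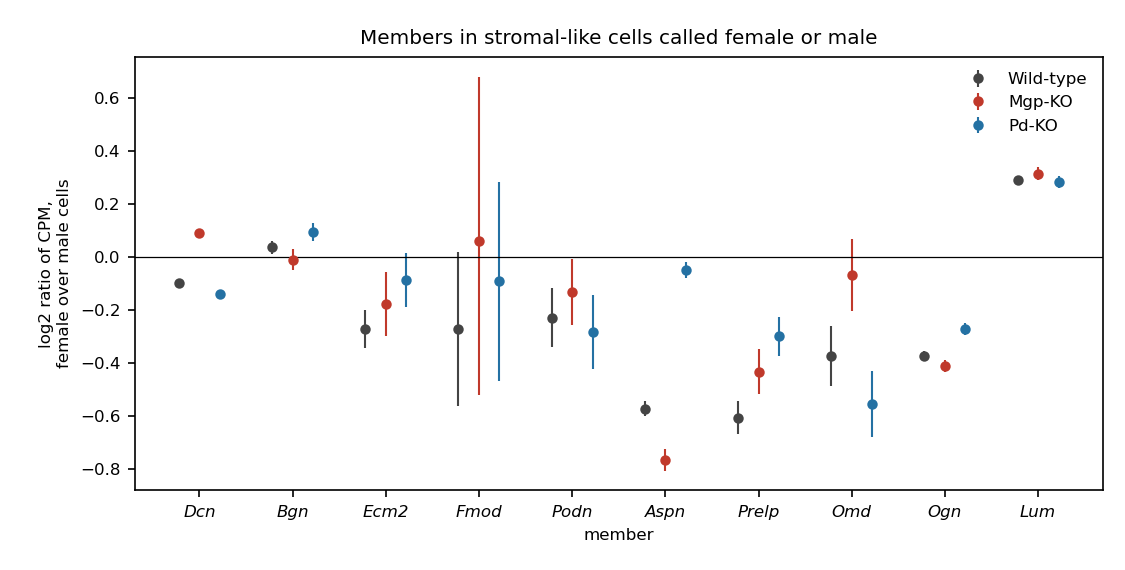
Log2 ratio of CPM of female over male stromal-like cells for each member, 1 point per library with its 95% counting interval. Lum lies between 0.28 and 0.31 in each library, Prelp and Ogn lie below it, and Aspn lies at -0.57 and -0.76 in Wild-type and Mgp-KO but at -0.05 in Pd-KO.

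Within 1 sex the genotype ratios of Aspn in all stromal-like cells together kept their direction. Mgp-KO over Wild-type was -0.40 in female and -0.20 in male cells, and Pd-KO over Mgp-KO was 1.23 in female and 0.51 in male cells. Fmod was at -1.03 in female and -1.36 in male cells in Mgp-KO over Wild-type. Sex, mouse and library are shared by the same cells, and the part of each was not tested.

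Genes that build, bind or cut the members were counted from fixed lists in stromal-like cells. Counts of higher and lower genes in these lists are of genes past 2-fold, as were 18.2% (higher) and 2.9% (lower) of all genes in Mgp-KO over Wild-type and 21.3% and 5.36% in Pd-KO over Wild-type. Of 10 collagens that the members bind, 1 was past 2-fold and higher in Mgp-KO over Wild-type (Col12a1, log2 ratio 1.05, spanning 120 kb) and 1 in Pd-KO over Wild-type (Col14a1, 1.32, spanning 213 kb), and none was lower. Col6a2 had log2 ratios of -0.60 and -0.14. By sign against Wild-type, 3 collagens were above 0 in both knockouts and 1 was below. Col1a1, Col1a2, Col3a1, Col5a1, Col6a1 and Col6a3 were below 0 in Mgp-KO and above 0 in Pd-KO, all within 2-fold. Col1a1 was at 13206, 10728.5 and 20443 CPM (log2 ratios of -0.30 and 0.63, and 0.93 for Pd-KO over Mgp-KO). Col3a1 had log2 ratios of -0.26 and 0.44. Of 24 chondroitin and dermatan sulfate chain enzymes, 5 were higher and 1 lower in Mgp-KO, and 6 higher and 2 lower in Pd-KO. Ust, an uronyl sulfotransferase, had log2 ratios of 4.09 and 4.20 and Chsy3 of 2.76 and 2.85, and these genes span 314 and 361 kb. Chst13, a chondroitin sulfotransferase spanning 16.8 kb, was at 8.33, 1.42 and 0.985 CPM, and Chst3 at 0.784, 0.436 and 0.293 CPM. Of 7 keratan sulfate chain enzymes tested, 1 was higher in Mgp-KO and 3 in Pd-KO, and the largest rises common to both knockouts were St3gal1 (1.23 and 1.49, spanning 74.0 kb) and Fut8 (1.00, just inside the limit, and 1.25, spanning 238 kb).

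The protease list gave 11 genes tested, among them Pcolce, which is an enhancer of such proteases. Of these 11, 2 were past 2-fold and higher in both knockouts, Tll1 (3.26 and 4.18, spanning 191 kb) and Adamts9 (1.61 and 1.06, spanning 171 kb). Mmp3, which cuts decorin, was past 2-fold and lower in Pd-KO (-2.03, and -0.92 in Mgp-KO). Adamts4 had log2 ratios of -0.32 and -0.92. Of 9 genes tested in the list of TGF-beta ligands, receptors and binding proteins, which also holds Bmp4 and Ccn4, 3 were past 2-fold and higher in Mgp-KO and 5 in Pd-KO. Tgfbr3 (1.95 and 2.10) and Ltbp1 (1.29 and 1.82) span 183 and 387 kb. Tgfbr1 (1.23 and 1.11), Tgfbr2 (0.75 and 1.26) and the ligand Tgfb2 (0.99 and 1.13) span 61.7, 91.1 and 83.2 kb. The ligands Tgfb1 (-0.09 and -0.44) and Tgfb3 (-0.11 and -0.34) span 18.1 and 22.3 kb. Bmp4 was at -0.03 and 0.19 and Ccn4 at 0.03 and -0.72. Of 10 receptors reported for members, 5 were past 2-fold and higher in Mgp-KO and 6 in Pd-KO and none was past 2-fold and lower, among them Tlr4 (2.09 and 2.15, spanning 103 kb), a receptor for biglycan, and Igf1r (1.93 and 2.21, spanning 281 kb), a receptor for decorin. Of 5 other small leucine-rich proteoglycans tested, none was past 2-fold in Mgp-KO and Kera was lower in Pd-KO (6.46, 6.07 and 2.23 CPM). Chadl had log2 ratios of 0.09 and 0.13 and Optc of 0.02 and 0.91. The median log2 ratios of these lists in Mgp-KO and Pd-KO were -0.28 and 0.57 for collagens, 0.11 and 0.38 for chondroitin and dermatan sulfate enzymes, 0.34 and 0.70 for keratan sulfate enzymes, and 0.22 and 0.50 for the protease list. They were 0.75 and 1.11 for the TGF-beta list, 1.03 and 1.19 for receptors and 0.02 and 0.12 for the other family members, beside 0.16 and 0.19 over all genes tested. Of all genes spanning at least 100 kb, 64.4% were past 2-fold and higher in Mgp-KO and 70.7% in Pd-KO, and the part of the software version was not tested. Between the knockouts, which share a version, 2.64% of all genes were past 2-fold and higher in Pd-KO and 4.43% lower. Col5a1 (1.13, of 10 collagens) and Erbb3 (1.02, of 10 receptors) were higher. Kera (-1.44, of 5 other family members) and Mmp3 (-1.11) and Adamts1 (-1.01), both of 11 genes of the protease list, were lower. No gene of the other lists passed. Erbb3 was at 1.40 CPM in Pd-KO against 0.693 CPM in Mgp-KO (interval 0.51 to 1.53). Some genes were chosen for naming after their values were seen. They were Col1a1, Col1a2, Col3a1, Col5a1, Col6a1, Col6a3, Tgfbr1, Tgfbr2, Tgfb2, Bmp4, Ccn4, Pcolce, Erbb3 and Adamts1.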

How the data were processed

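Droplet-based 3' libraries (10x Genomics) were analysed from the unfiltered counts of UMIs per gene and barcode deposited by the authors, without normalization. The count file headers name Cell Ranger 4 (Wild-type) and 7.1.0 (both knockouts), the submitters' processing notes 6.1.1 and GRCm39, and the study's methods mm10; whether intronic reads were counted is not given in the sources used here. Coordinates and spans are from GENCODE on GRCm38. No column of another sample was present. The members and gene lists were chosen with earlier results of these data known. Cells had at least 2000 UMIs and at most 10% mitochondrial UMIs; 2000 variable genes without members and Mgp, 30 principal components, Harmony-type integration, 20 neighbours and Leiden clustering (resolution 0.5) gave 27 clusters and 13 stromal subsets, named from the marker lists. The naming cut-offs, the minimum of 100 CPM for the subset ratio, the 250-base promoter window and the sign counts over subsets were set after the data were examined. UMIs were summed per class and library, with exact Poisson intervals for CPM, exact conditional binomial intervals for log2 ratios, 95% throughout, and no test. These were tested on simulated data. A count of 0 allows 3 counts. Named genes were the 10 members, the 2 largest rises and falls in each list by the smaller ratio of both knockouts, and the 3 genes most like each member. The list genes said above to be chosen after their values were seen were added to these. Alternatives covered depth, mitochondrial share, doublets, scaling, cell weights, free RNA, sex, integration, resolution, subset shares and the minimum of 10 UMIs per gene. Python 3.11.15, NumPy 2.4.6, SciPy 1.17.1, pandas 2.3.3, scikit-learn 1.9.0, igraph 0.11.9 and leidenalg 0.10.2 were used.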

Additional observations from a re-analysis of the deposited data

Results flagged for a closer look

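Stromal-like and mural-like cells did not hold the highest level of every member. Fmod was higher in a small cluster led by Ccl19 and left unnamed, at 102.8 CPM in the Wild-type library (148 cells), 100.3 CPM in Mgp-KO (38 cells) and 78.5 CPM in Pd-KO (24 cells), against 21.6, 12.8 and 9.44 CPM in mural-like cells. Lum was higher in another small unnamed cluster led by Apod, at 7134 CPM in Wild-type (35 cells), 3374 CPM in Mgp-KO (19 cells) and 5811 CPM in Pd-KO (33 cells), against 1994, 1430.3 and 1347.55 CPM in stromal-like cells. Both stood out because they were at least 2-fold above pooled stromal-like and mural-like cells in every library, in cells that enter no comparison above, and neither was tested. Single subsets came closer. Areg-like cells held Fmod at 38.9, 21.4 and 44.0 CPM, and the Ccl19-led value in Pd-KO rests on 12 UMIs (interval 40.6 to 137 CPM). Lum reached 4100 CPM in the Wild-type Crabp1 stromal-like subset. In the Itga2b-high Col18a1 stromal-like subset it was at 3150 CPM in Mgp-KO and 3608 CPM in Pd-KO. Other members were also above the pooled stroma in small groups of cells. Dcn in the Apod-led cluster was at 36774, 18205 and 36999 CPM in the same order of libraries, less than 2-fold above the stroma in Mgp-KO. Bgn in the Ccl19-led cluster was at 1141, 891 and 1316 CPM, below its level in Areg-like cells. Fmod in basal myoepithelial-like cells was at 32.4, 44.3 and 45.4 CPM, from 20, 48 and 9 UMIs, which is above its mural level in each library.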

How the results depend on the processing

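No paired analysis was possible because each genotype is 1 library, and no library could be left out. Of 91 counts recomputed under the alternatives, 81 stayed within 1.5 times their value and 10 moved. Pd-KO over Mgp-KO in stromal-like cells had 2 members past 2-fold in female cells only (Aspn and Fmod). Mgp-KO over Wild-type in mural-like cells had 1 in place of 0 with at least 5000 UMIs per cell (Podn), with likely doublets left out (Lum) and with each cell weighted equally (Lum). Pd-KO over Wild-type in mural-like cells had 3 without likely doublets (Dcn, Lum and Ogn), 0 in female cells only, 2 with median-ratio size factors and 2 with free RNA subtracted (both Lum and Fmod). Mural-like over stromal-like cells in the Mgp-KO library had 2 with at least 5000 UMIs and 3 in male cells only, in place of 6. The cause was not tested, beside the smaller number of cells where cells were left out. The log2 ratio of Fmod in mural-like over stromal-like cells of Pd-KO turned to -0.11 in male cells only. It was past 2-fold in 5 of 11 alternatives, and Fmod in Pd-KO over Wild-type mural-like cells in 7 of 11. Of 908 log2 ratios of single members, 545 stayed within the counting interval of the reported value and 362 moved beyond it. The last 1 was the only ratio past 2-fold to change sign. Over all ratios, 852 kept their sign and 56 changed it. Fmod was past 2-fold in stromal-like cells in all 12 alternatives for Mgp-KO over Wild-type (-1.60 to -1.01) and for Pd-KO over Mgp-KO (1.02 to 1.32). Aspn kept its sign in both (-0.81 to -0.20 and 0.51 to 1.23). With genes of at least 10 UMIs, 10.6% of all genes were past 2-fold in Pd-KO over Mgp-KO. Fmod, at a few CPM, is limited by depth, and the 223 Mgp-KO mural-like cells limit every value there.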
